A study of Drosophila melanogaster with 2 samples.

Results

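Springer{}300, blood{}2438, invader3{}1714 and gypsy3{}1250 are 4 single transposon insertions of different families that had nearly the same read level in fly ovaries. They were selected on the mean read level in the authors' deposited table, about 6500 to 7500 normalized reads, and are 4 of the 184 insertions listed as higher in homozygous mutant ovaries when reads with up to 10 mappings were counted. The level and the fold of the 4 insertions come from the comparison that chose them, so both are given as a description. Their positions, lengths and neighbours were not used to choose them. The lowest of the 4, gypsy3{}1250, had a mean of 6534 normalized reads in the authors' deposited table. The range also held 6 other springer copies, down to springer{}1251 at 6532, and the first listed insertion below it was Transpac{}32 at 6082, by the authors' deposited table. No listed insertion had a higher mean than springer{}300.

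RNA was taken from ovaries of *Drosophila melanogaster* flies 3 to 5 days old, kept at 25 °C. The groups were homozygous z3-5967 ovaries and heterozygous z3-5967 ovaries, so the control carried 1 copy of the mutation as well. The labels give z3-5967 as a mutant of GC5508, read here as CG5508 of the titles, the gene minotaur, and do not say what the other chromosome of the heterozygous flies carried or how many animals a library holds. Each genotype had 1 library, so differences are given without any check by replicates and without a test.

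Springer, blood, invader3 and gypsy3 are families of LTR retrotransposons, mobile elements that are transcribed into RNA, copied back into DNA and inserted elsewhere in the genome. A new copy can land inside an older one, and the older element is then split by the newer one while its annotated span still runs from end to end. In fly ovaries such elements are silenced by piRNAs, small RNAs made in part from long precursor transcripts of piRNA clusters. The study's title places minotaur in the production of primary piRNAs. Copies of a family share sequence, so a read of one copy often maps to several.

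The lists hold only features that passed the authors' test, so total depth and the levels of ovary markers were not used here, and absence from a list does not show that a feature stayed the same. Mino had 0 entries in the 5 lists and gives no check of the genotype labels. The per-library columns of the lists with up to 10 mappings are headed zucMUT and zucCD, which match neither sample, while the file names give homozygous CG5508. These lists were taken as the CG5508 comparison because their reads were the same or more in all 134 entries shared with the lists of uniquely mapped reads, a reading that no label states. For the lists with up to 10 mappings, the level of each genotype follows from the authors' mean and ratio, which imply the same values as those columns. All 394 homozygous and all 394 heterozygous levels were whole multiples of 1 step per library, 0.863 normalized reads per homozygous read and 1.16 per heterozygous read, within 0.01 read, and dividing by the step gave whole reads. No level held a fraction of a read. Ranges in parentheses after a fold are exact 95% intervals (Clopper-Pearson, conditional on the sum of both libraries) and cover counting error only.

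The 4 insertions lay at 3 places of the genome, and a springer copy was present at each of them. Gypsy3{}1250 lay inside invader3{}1714, which was the only overlapping pair among the 6 pairs that the 4 insertions form. Blood{}2438 and springer{}300 were on other chromosomes. Positions are those of the dm6 build, and the authors' files name dm3.

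Invader3{}1714 (FBti0059775) spans chr3R:7694632-7707819 on the plus strand, 13188 bases. Gypsy3{}1250 (FBti0020316) starts 1078 bases into it, at chr3R:7695710-7703427 on the same strand, and spans 7718 bases. Inside gypsy3{}1250 lies a further listed insertion, springer{}1251, at chr3R:7696150-7703338, also on the plus strand. It fills all of gypsy3{}1250 but 440 bases before it and 89 after it, or 93.1% of the gypsy3{}1250 span. Of invader3{}1714, springer{}1251 fills 54.5%. The left end of invader3{}1714 overlaps the last 243 bases of the neuroligin gene Nlg1, in its 3′ UTR. Nlg1 was in none of the lists with up to 10 mappings, which together hold only 394 entries.

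Blood{}2438 (FBti0060499) spans chrX:21716913-21731788 on the minus strand, 14876 bases. It contains springer{}2141, of 7629 bases, at chrX:21723964-21731592 on the same strand, with 7051 bases of blood{}2438 to its left and 196 to its right. Both lie within the annotated span of lncRNA:flam, the flamenco piRNA cluster, and on the strand opposite to it. Exons of lncRNA:flam cover 93 bases of blood{}2438 and 0 bases of springer{}2141. Springer{}300 (FBti0019115) spans chr2L:3251549-3259058 on the plus strand, 7510 bases, and overlaps no annotated gene or other listed insertion.

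**Figure D1:**
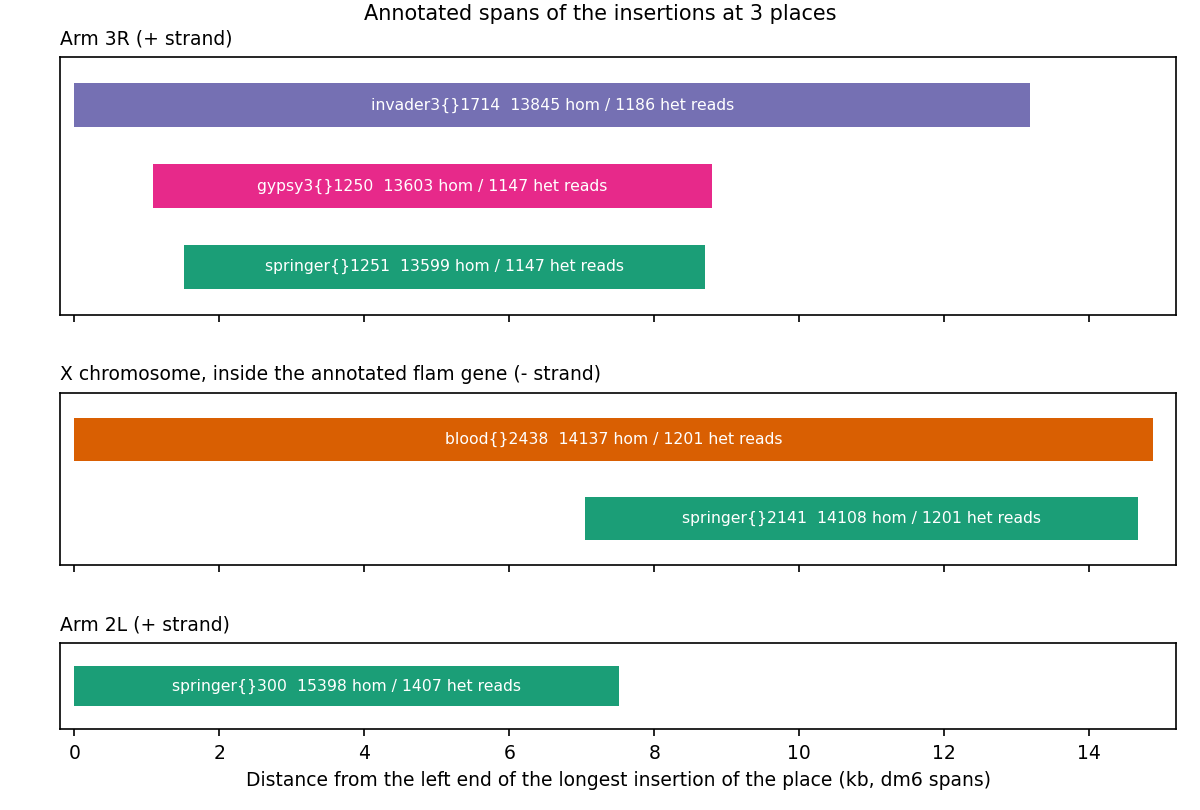
Spans of the insertions at the 3 places, drawn to scale as distance in kb from the left end of the longest insertion of each place, with the reads recovered in the homozygous and the heterozygous library written on each bar. At 2 of the 3 places a springer copy lies inside an insertion of another family.

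Springer{}300 held 15398 homozygous reads, against 1407 heterozygous reads, or 13288 and 1630.5 after normalization. Blood{}2438 held 14137 homozygous and 1201 heterozygous reads. Invader3{}1714 held 13845 homozygous and 1186 heterozygous reads. Gypsy3{}1250 held 13603 homozygous and 1147 heterozygous reads, the fewest of the 4 in both libraries. All 4 came from a list of features higher in the homozygous library, so homozygous totals above the heterozygous ones were set by that choice.

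The folds of the 4 insertions were as close as their levels. In the authors' deposited table the fold, homozygous over heterozygous, was 8.15 for springer{}300 (7.72 to 8.61), 8.77 for blood{}2438 (8.26 to 9.31), 8.69 for invader3{}1714 (8.19 to 9.23) and 8.83 for gypsy3{}1250 (8.31 to 9.39). The largest adjusted p of the 4 in the authors' deposited table was 1.08e-14, from 1 library per genotype. All 4 passed 4-fold, as did 95.7% of the 184 listed insertions, so passing it says nothing particular of them. The median fold of the 4 was 8.73, against 15.0 over the 179 listed insertions with a position and a finite fold.

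Per length of span the 4 insertions were not alike. Springer{}300 had 2050.3 homozygous reads per kb and gypsy3{}1250 had 1763. Invader3{}1714 had 1049.8 homozygous reads per kb and blood{}2438 had 950.3. The 2 long spans thus had the lower density, and their total was nearly that of the short ones.

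The totals of the outer insertions were almost those of the springer copies inside them. Gypsy3{}1250 held 13603 homozygous reads against 13599 in springer{}1251, a difference of 4 reads, and both held 1147 heterozygous reads. Blood{}2438 held 14137 homozygous reads against 14108 in springer{}2141, a difference of 29 reads, and both held 1201 heterozygous reads. As a share, the reads of the inner springer copy equalled 99.97% of the homozygous reads of gypsy3{}1250 and 99.8% of those of blood{}2438. For invader3{}1714 the share was 98.2% of the homozygous and 96.7% of the heterozygous reads. The tables hold totals, so which reads 2 features have in common was not seen directly. The remainders below take every read of an inner insertion as counted for the outer one too.

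On that reading, little was left for the outer elements themselves. Gypsy3{}1250 kept 4 homozygous and 0 heterozygous reads over its own 529 bases, too few for a fold. Blood{}2438 kept 29 homozygous and 0 heterozygous reads over its own 7247 bases, a ratio of 7.20 against a floor of 3 heterozygous counts, with an exact lower limit of 5.49-fold. Invader3{}1714 kept 242 homozygous and 39 heterozygous reads over the 5470 bases outside gypsy3{}1250, a 4.62-fold difference (3.28 to 6.66). Its fold as listed was 8.69, outside that interval.

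In reads per kb the parts outside springer stood far below the springer copies. The homozygous density was 7.56 reads per kb in gypsy3{}1250 outside springer{}1251, against 1892 in springer{}1251. It was 4.0 in blood{}2438 outside springer{}2141, against 1849 in springer{}2141. It was 44.2 in invader3{}1714 outside gypsy3{}1250, against 1763 in gypsy3{}1250. The limit of 10 mappings can bear unequally on these densities. Annotated copies of at least 5000 bases in dm6 numbered 7 for springer, 10 for invader3 and 27 for blood. Some of these invader3 and blood copies have no FlyBase insertion identifier and could not be matched to the lists. Reads common to more than 10 places were not counted, and how far this lowered the densities was not tested.

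**Figure D2:**
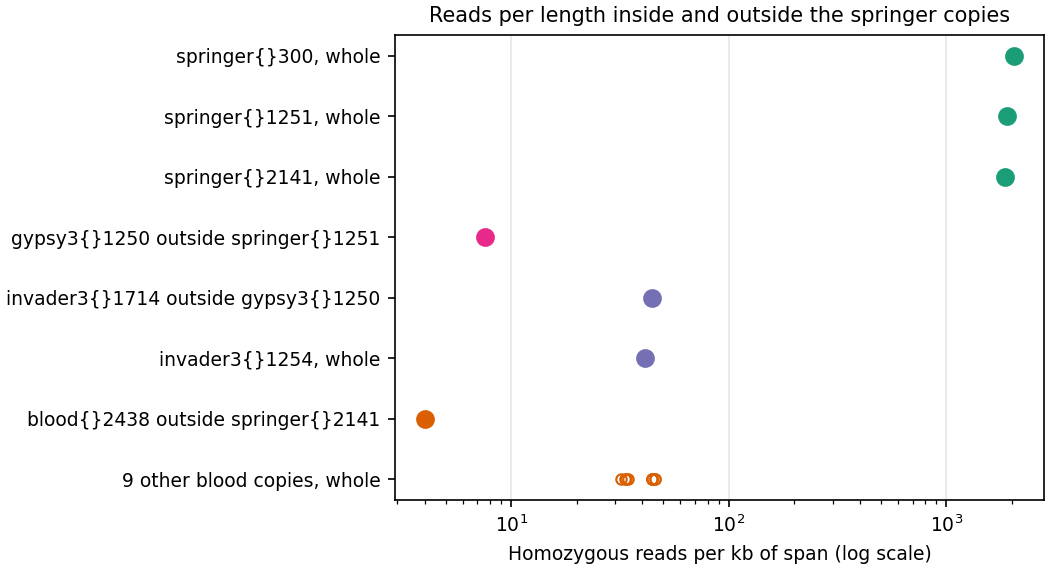
Homozygous reads per kb of annotated span on a log scale, 1 filled point per insertion or part of an insertion and open points for the 9 other listed blood insertions. The 3 springer copies shown sit at 1849 to 2050.3 reads per kb and the parts of the other elements outside them at 4.0 to 44.2. Reads with more than 10 mappings were not counted.

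Springer itself had 22 annotated copies in dm6, of which 8 were listed and 14 were not. The share listed among all annotated insertions, overall or by length, was not computed. Such counts, here and for the other families below, are therefore not read as particular to a family. The listed copies spanned 4583 to 7629 bases and the others 93 to 2295 bases. All 7 copies of at least 7000 bases were listed, a number below the limit of 10 mappings. The 22 annotated copies together are above it. Reads shared with shorter copies, or mapping more than once within a copy, could therefore exceed the limit. Springer{}300 held 15398 homozygous reads, and springer{}59, springer{}97, springer{}1067 and springer{}1464 held 15394, 15390, 15383 and 15376. These 5 copies lie inside no other listed insertion, on 2L, 3L, 3R and X, and their homozygous totals spanned a range of 22 reads, or 0.143% of the springer{}300 total. Their heterozygous totals were 1398 to 1412 reads. Copies of 1 family can share reads when several mappings are counted, so these totals are not treated as independent measurements.

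Of the 7 springer copies of at least 7000 bases, the 2 that lie inside another listed element held fewer reads than the other 5. Against the total of springer{}300, springer{}2141 was short by 1290 homozygous and 206 heterozygous reads, and springer{}1251 by 1799 homozygous and 260 heterozygous reads. In the homozygous library springer{}2141 thus held 91.6% and springer{}1251 88.3% of the springer{}300 total. If their reads are a subset of those of springer{}300, the reads that they lacked had a smaller fold than the reads they held. On that assumption the ratio of the missing reads was 4.66 for springer{}2141 (4.02 to 5.43) and 5.15 for springer{}1251 (4.52 to 5.89). The totals do not show whether it holds. Springer{}1464 had fewer homozygous reads than springer{}300 (15376 against 15398) but more heterozygous reads (1412 against 1407), so springer copies need not nest in this way. By contrast the listed folds of springer{}2141 and springer{}1251 in the authors' deposited table were 8.75 and 8.83. Blood{}2438, invader3{}1714 and gypsy3{}1250 had folds nearer to these than to the 8.15 of springer{}300.

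**Figure D3:**
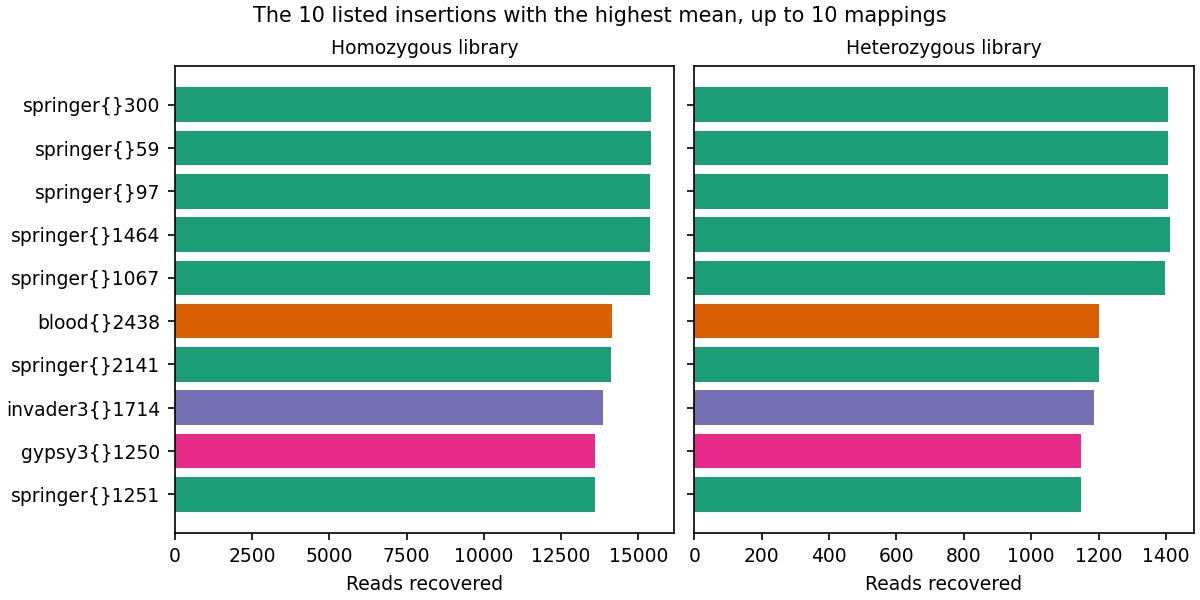
Reads recovered in the homozygous library (left) and the heterozygous library (right) for the 10 listed insertions with the highest mean, 1 bar per insertion, colored by family and ordered by mean. Blood{}2438 stands beside springer{}2141, and invader3{}1714 and gypsy3{}1250 beside springer{}1251, in both libraries.

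By mean, springer{}300 ranked 1, blood{}2438 ranked 6, invader3{}1714 ranked 8 and gypsy3{}1250 ranked 9 among the listed insertions. The other 6 of the first 10 were springer copies, so every insertion in these ranks either was a springer copy or contained one. The next ranks were held by the 5 Transpac insertions, whose folds were 66.6 to 67.9 by the authors' deposited table. A window of 20% around the mean of springer{}300 held 15 insertions, made up of 7 springer copies, the 3 insertions around them and the 5 Transpac insertions.

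An eighth springer copy had a very different level. Springer{}5855, a partial copy of 4583 bases on 3L, held 320 homozygous and 16 heterozygous reads, or 2.08% of the homozygous total of springer{}300. Its fold in the authors' deposited table was 14.9. It lies inside Stalker4{}1798, another listed LTR retrotransposon, which held 331 homozygous and 16 heterozygous reads. The outer and the inner insertion were thus close in level here too.

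The other copies of the blood family did not resemble blood{}2438. Blood{}2438 had 14137 homozygous and 1201 heterozygous reads, whereas the 9 other listed blood insertions had 238 to 338 homozygous reads, with a median of 329, and 2 heterozygous reads each. The folds of these 9 were 88.6 to 126 in the authors' deposited table, against 8.77 for blood{}2438. They span 7395 to 7417 bases, near the 7247 bases of blood{}2438 outside its springer copy. Those 7247 bases had 4.0 homozygous reads per kb, and the 9 insertions had 32.1 to 45.7. The value of 2 heterozygous reads makes their folds imprecise. Copies of the family can share reads, and blood{}218 and blood{}1094 had equal totals, so the 9 are not treated as independent measurements. Of 29 annotated blood copies 10 were listed, and some of the 29 had no FlyBase insertion identifier to match. Of the 29 copies, 27 were at least 5000 bases long in dm6. That is above the limit of 10 mappings, so reads common to most blood copies could go uncounted.

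The invader3 family gave a closer match. Invader3{}1254 is the next insertion along 3R, starting at the base after invader3{}1714, and held 239 homozygous and 37 heterozygous reads over 5816 bases. Invader3{}1714 outside gypsy3{}1250 had 242 homozygous and 39 heterozygous reads over 5470 bases. The fold was 4.62 for that part of invader3{}1714, against 4.81 for invader3{}1254 and 5.01 for invader3{}240 in the authors' deposited table. These copies can share reads when several mappings are counted, so the likeness is not treated as independent support for the subtraction. Invader3{}1641 stood apart at 15.3-fold, with 680 homozygous and 33 heterozygous reads. It contains gtwin{}1686, of another LTR family, which held 661 homozygous and 30 heterozygous reads. Beyond gtwin{}1686, invader3{}1641 had 19 homozygous and 3 heterozygous reads, a ratio of 4.72 with a wide interval (1.39 to 24.9). So 4 of 37 annotated invader3 copies were listed, and both that contain another listed insertion had the level of the inner one.

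**Figure D4:**
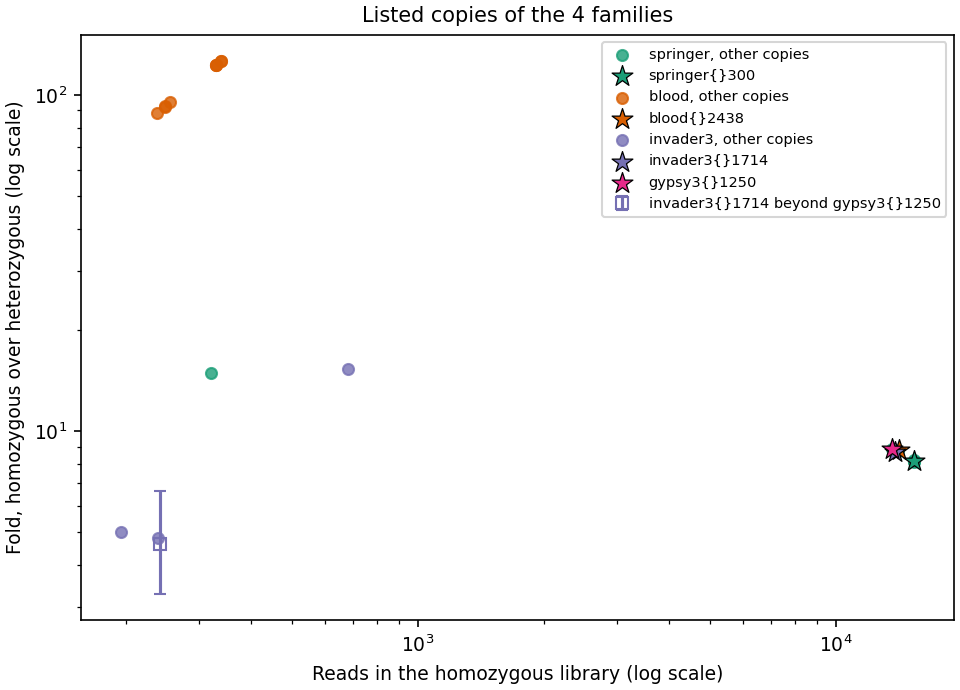
Fold, homozygous over heterozygous, against homozygous reads for every listed copy of the 4 families, both on log scales, with stars for the 4 insertions. The open square is invader3{}1714 without the reads of gypsy3{}1250, with its exact 95% interval. It lies at 4.62-fold beside invader3{}1254 and invader3{}240, which may share its reads.

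Gypsy3 had 15 annotated copies and gypsy3{}1250 was the only one listed. Outside springer{}1251, gypsy3{}1250 has only 529 bases. The other gypsy3 copy with an annotated span of at least 5000 bases, gypsy3{}1699, spans 13519 bases and was not listed. It contains 2 short springer pieces, springer{}691 of 2295 bases and springer{}690 of 137 bases, neither of which was listed. Among all annotated insertions, 3 contain a springer copy of at least 7000 bases, and these were blood{}2438, invader3{}1714 and gypsy3{}1250.

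No value of these families from uniquely mapped reads could be set beside these. The lists of uniquely mapped reads held 0 insertions of springer, 0 of blood, 0 of invader3 and 0 of gypsy3. The number of insertions of other families in these lists is not given here, so this absence is not read as particular to the 4 families. The values of the 4 insertions thus rest on reads counted with up to 10 mappings.

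The minus strand of the flam cluster was listed as well. In dm6 blood{}2438 is annotated on the minus strand and lncRNA:flam on the opposite one. The values of the minus strand are therefore not given as those of the annotated flam transcript. In the list with up to 10 mappings the minus strand held 21573 homozygous and 1725 heterozygous reads. With uniquely mapped reads it held 2039 homozygous and 113 heterozygous reads. Its fold in the authors' deposited table was 9.31 with up to 10 mappings and 13.5 with uniquely mapped reads. Blood{}2438 alone had reads equal to 65.5% of the homozygous and 69.6% of the heterozygous total of that strand with up to 10 mappings. Blood{}2438 lies within the annotated flam gene, but the bounds of the authors' cluster in dm3 were not used here, so whether its reads are among those of the cluster was not tested.

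Genes around the springer copies were not listed in either direction with up to 10 mappings. These lists hold only 394 entries, insertions included, and the share of all genes listed was not computed. The absence of these genes therefore says nothing particular of them. Springer{}59 lies within rg and CG15465, springer{}1464 within Sox100B and springer{}97 within l(1)G0289, each on the strand opposite to the gene. Exons of rg, CG15465 and Sox100B cover 0 bases of these copies, and exons of l(1)G0289 cover 1. Springer{}1067 overlaps the end of the isoQC gene on the same strand by 196 bases. It also overlaps the end of ZnT77C on the opposite strand by 58 bases.

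Nesting was also present elsewhere in the list. Of 182 listed insertions found in the annotation, 34 were in 26 overlapping pairs, and in each pair the shorter insertion lay wholly inside the longer. In all 25 pairs on the same strand the longer insertion had at least as many reads as the shorter in both libraries, with ratios of means of 1.0 to 5.06. In the 1 pair on opposite strands, Rt1b{}1666 around gypsy12{}2214, the longer had a mean of 618 and the shorter of 2583 normalized reads in the authors' deposited table. The entry of the flam cluster names a strand, while no label or header used here says whether insertions were counted by strand. A count blind to strand would give an outer insertion at least the reads of the inner, if the spans nest in dm3 too. Rt1b{}1666 held 1207 homozygous reads, against 5370 in gypsy12{}2214.

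Blood{}2438, invader3{}1714 and gypsy3{}1250 had 4 such pairs, with means of the longer over the shorter of 1.0 to 1.02. Of the 22 pairs without them, 9 had means within 10% of each other, or 40.9%. Several pairs in both sets share an insertion, so they are not separate cases and some places count more than once. Close pairs in the authors' deposited table were roo{}1707 around HMS-Beagle{}824, at means of 905.1 and 904.5, and 297{}2766 around Idefix{}3762, at 411.1 and 409.6. F{}656 around Stalker2{}1673 had means of 922 and 874 in the authors' deposited table but folds of 22.4 and 42.1. Farther apart were Stalker4{}2894 around GATE{}2924, at 501 and 423, and HMS-Beagle{}4605 around gypsy10{}4606, at 464 and 334, in the authors' deposited table.

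**Figure D5:**
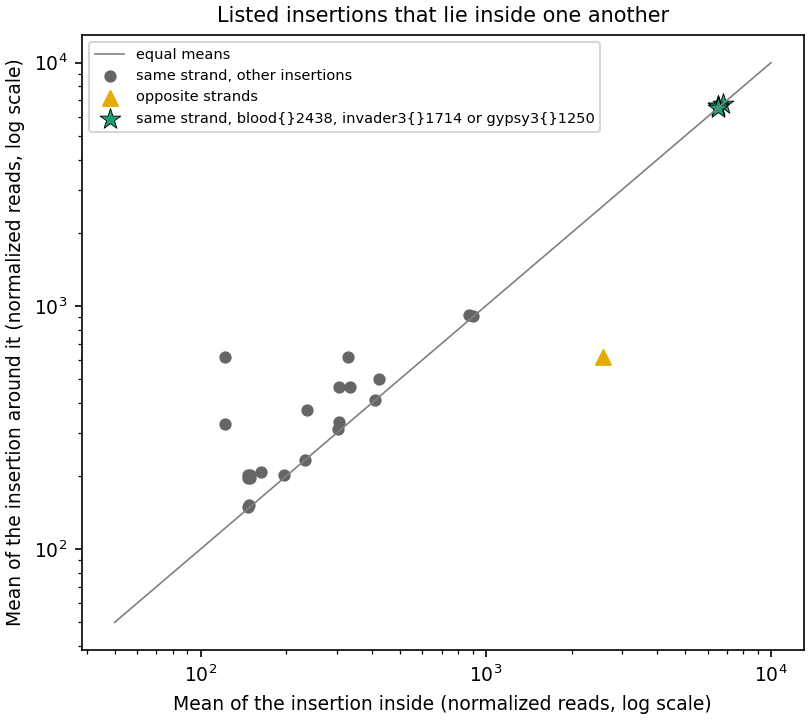
Mean of the outer against the mean of the inner insertion in the authors' deposited table for the 26 pairs of listed insertions that lie inside one another, in normalized reads on log scales. Stars are the 4 pairs with blood{}2438, invader3{}1714 or gypsy3{}1250, which lie on the line of equal means, and the triangle is the 1 pair on opposite strands.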

How the data were processed

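The authors deposited 5 lists of features that passed their test. Tools named in the submitters' processing notes, with no role stated, are DESeq 1.8.2, bedtools, Bowtie 0.12.8 and TopHat 1.4.1, with build dm3. The authors' signal columns give normalized read counts, per the file headers: the mean of the 2 libraries in every list, and each library apart where only uniquely mapped reads were counted. The deposited fold, a ratio, divides heterozygous by homozygous and was inverted here. The deposited log2 column is its log2, and the deposited p-values are the authors' own. Left out were 4 columns of single libraries in the lists with up to 10 mappings, headed zucMUT and zucCD, names outside the labels. The reads were recovered from the mean and the ratio, which imply the values of those columns. In all 134 entries shared with the lists of uniquely mapped reads, neither library had fewer reads with up to 10 mappings, and 34 entries had identical reads. The lists were therefore taken to hold the same libraries, which no label states.

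Insertions were matched by FlyBase identifier to Ensembl release 115 (dm6), 182 of 184 with a position, and no coordinates were converted. Overlap meant at least 1 shared base. Named features were the 4 insertions, listed features overlapping them, listed copies of their families, insertions within 20% of the springer{}300 mean and the nested pairs of highest mean. The 4 insertions and this rule were chosen with earlier results of these data known. Stalker4{}1798 and gtwin{}1686 were named as the insertions around or inside such copies, and Transpac{}32 as the first listed insertion below the range of means. Python 3.11.15, pandas 2.3.3 and scipy 1.17.1 were used. Read recovery and intervals were tested on simulated data. No count model was run, because the lists hold selected features and 1 library per genotype.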

Additional observations from a re-analysis of the deposited data

How the results depend on the processing

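No paired analysis was possible because there was 1 library of each genotype, and none could be left out. With a pseudocount of 1 or 10 normalized reads, the 4 folds stayed within their counting intervals. Restricted to reads beyond the lowest of the 4, gypsy3{}1250, the fold was 5.14 for springer{}300, 7.36 for blood{}2438 and 4.62 for invader3{}1714, which follows from the subtraction, and the subtraction of springer{}300 and blood{}2438 crosses places. Setting aside the reads of the insertion inside invader3{}1714, an alternative chosen after seeing the data, is the same subtraction and gave 4.62. The count of insertions near the springer{}300 mean was 7 within 10%, in place of 15 within 20%, since a narrower window leaves out the Transpac insertions and 3 others. Requiring the same strand, containment or spans widened by 5000 bases left 1 overlapping pair among the 4. The planned comparison of shared short sequences between the insertions was not run, because no genome sequence was used here. Counting error is small for the 4 totals and large for the remainders of gypsy3{}1250 and blood{}2438.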
